A study of Homo sapiens with 12 samples.

Results

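Drug efflux transporters for vinca alkaloids are described here through 9 genes of the 60671 listed in the deposited table. They are ABCB1, ABCC1, ABCC2, ABCC3, ABCC4, ABCC5, ABCC10 and ABCG2, which encode ATP-driven pumps of the multidrug families, and MVP, the major vault protein. They were chosen by name, and all 9 had a row. RNA came from cells labelled Jurkat, a human T cell leukemia line, in 4 groups of 3 libraries, the control groups NC+DMSO and NC+VCR and the PTPN21 overexpression groups PTPN21+DMSO and PTPN21+VCR. NC cells are labelled WT, and the methods describe controls with the GFP vector pHIV7/SFFV-GFP. In the PTPN21 overexpression group the SFFV promoter drives PTPN21-3×FLAG from the same lentiviral backbone. Vincristine (VCR) or DMSO was given for 48 h, and no dose is stated for the sequenced cells. No label says that the 3 libraries of a group were separate cultures, so the p-values measure the spread between libraries, which may be technical.

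VCR is a vinca alkaloid that binds tubulin, blocks spindle assembly and must build up inside the cell to act. ABC transporters use ATP to move compounds out through the plasma membrane. P-glycoprotein, the product of ABCB1, is the pump best known for vinca alkaloids, and multidrug resistance proteins of the C family export drugs or their conjugates, in part together with glutathione. MVP forms vaults, large ribonucleoprotein particles that have been linked to drug resistance.

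The promoter of ABCB1 is shown because ABCB1 was the member that rose under VCR. GENCODE release 29 places the gene on the minus strand at chr7:87503633-87713323 of GRCh38. RefSeq (GRCh38.p14) gave a window for 2 ABCB1 start sites, 1 at the end of this span and 1 inside it. All 4 stretches below lie before the start sites. The first and the second hold no annotated exon of their gene. The third, 30 bases around an inverted CCAAT box, and the fourth, 30 bases from ABCC5, the member with the highest level, lie within exons that GENCODE annotates for transcripts starting further upstream. Capitals mark a CCAAT box on the gene's strand in the second, the same box read on the other strand (ATTGG) in the third, and a TATA box in the fourth.
ABCB1 start site 1, chr7:87713324-87713545, minus strand: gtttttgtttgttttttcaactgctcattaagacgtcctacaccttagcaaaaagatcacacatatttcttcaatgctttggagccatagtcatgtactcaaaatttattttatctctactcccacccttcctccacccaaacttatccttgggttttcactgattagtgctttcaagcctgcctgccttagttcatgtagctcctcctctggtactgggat
ABCB1 start site 2, chr7:87601079-87601134, minus strand: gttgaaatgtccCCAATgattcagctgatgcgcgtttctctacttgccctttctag
ABCB1 start site 2, chr7:87600946-87600975, minus strand: gtggtgaggctgATTGGctgggcaggaaca
ABCC5 start site 1, chr3:184017895-184017924, minus strand: ggccgatgccgcTATAAAggcttgttttgc

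5 motifs were searched on both strands in the 250 bases before each start site: the CCAAT box (CCAAT), the GC box (GGGCGG), the TATA box (TATAAA), the AP-1 site (TGACTCA) and the cAMP response element (TGACGTCA). Of 35116 RefSeq windows, 32% held the first, 42.6% the second, 10.7% the third, 4.2% the fourth and 1.65% the fifth. The second ABCB1 window held CCAAT from 238 to 234 bases before the start and its inverse from 79 to 75 bases before it. The first ABCB1 window held none of the 5. A TATA box lay 28 to 23 bases before the ABCC5 start and an inverted GC box 176 to 171 bases before it. Windows were found for 7 of the 9 genes, with no entry for ABCC1 and ABCC3. A match describes the letters only.

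Values are FPKM, that is fragments divided by gene length and by library size, so levels can be set side by side between genes. From the steps of FPKM times gene length, libraries were estimated to hold 28700000 to 47600000 fragments if 1 step is 1 fragment, and 14400000 to 23800000 if 2 steps are. The estimate was 28700000 to 35600000 in NC and 40800000 to 47600000 in PTPN21 libraries, so the effects of depth and construct cannot be told apart. It is rough, as 39.0% to 45.2% of values lay within 0.1 of a whole step, where 20% would by chance. The steps found in PTPN21 libraries, 21 to 24.5, also lay near the lower end of the search. PTPN21, the check of the labels, was at 8.82 ± 1.48 FPKM (SD, n = 3) in PTPN21+DMSO and 5.74 ± 1.21 in PTPN21+VCR, against 0.0638 ± 0.0378 in NC+DMSO and 0.367 ± 0.205 in NC+VCR. NC+DMSO replicate 3 had the lowest FPKM sum, and its values were the highest of its group for ABCC1, ABCC4, ABCC5 and MVP.

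Most of the T cell markers went against the label. Of 12 T cell markers, 2 had a mean of at least 1 FPKM, namely CD3D at 61.8 to 139.7 FPKM and TRBC1. The 4 markers CD5, CD28, LCK and CD247 were listed at 0 in all 12 libraries. Of 6 epithelial and kidney markers 4 reached a mean of 1 FPKM (KRT8, KRT18, KRT19 and EPCAM), as did 3 of 6 myeloid markers (CD68, LYZ and ITGAM) and 0 of 6 B cell markers. All 13 genes of red blood cell formation in a list written after values were seen, among them KLF1, HBZ and GATA1, had a mean of at least 1 FPKM. Their means ran from 1.05 FPKM for EPOR to 1214 FPKM for HBG2, and KRT8 had a mean of 578 FPKM. The libraries are called by their labels, and the identity of the cells was not tested.

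Of the 9 genes, 6 had a mean of at least 1 FPKM over the 12 libraries: ABCB1, ABCC1, ABCC4, ABCC5, ABCC10 and MVP. Only ABCC4, ABCC5 and ABCC10 reached 1 FPKM in every library. ABCB1 reached it in 6 of 12 libraries, all of them VCR libraries, and PTPN21+DMSO replicate 1 fell just short at 0.999752 FPKM. The mean of ABCB1 was 0.0582 FPKM in NC+DMSO and 0.443 FPKM in PTPN21+DMSO. ABCB1 therefore passed the minimum only through the groups in which it was high.

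ABCG2, a transporter of the G family that exports many drugs, was listed at 0 in all 12 libraries. ABCC2, the canalicular pump for glutathione and bilirubin conjugates, was above 0 in 4 of 12 libraries and reached at most 0.200 FPKM, in PTPN21+VCR replicate 2. ABCC3, an exporter of bile salts and glucuronides, was above 0 in 7 of 12 libraries and reached at most 0.275 FPKM, in NC+DMSO replicate 1. It was above 0 in 5 of the 6 DMSO libraries and in 2 of the 6 VCR libraries. Of the 60671 genes listed, 18617 to 20089 were above 0 in NC+DMSO libraries and 16232 to 18105 in NC+VCR libraries. In PTPN21 cells 19953 to 20329 were above 0 under DMSO and 18806 to 19630 under VCR. Detection was thus lower under VCR over all genes as well. ABCG2, ABCC2 and ABCC3 were not tested.

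**Figure D1:**
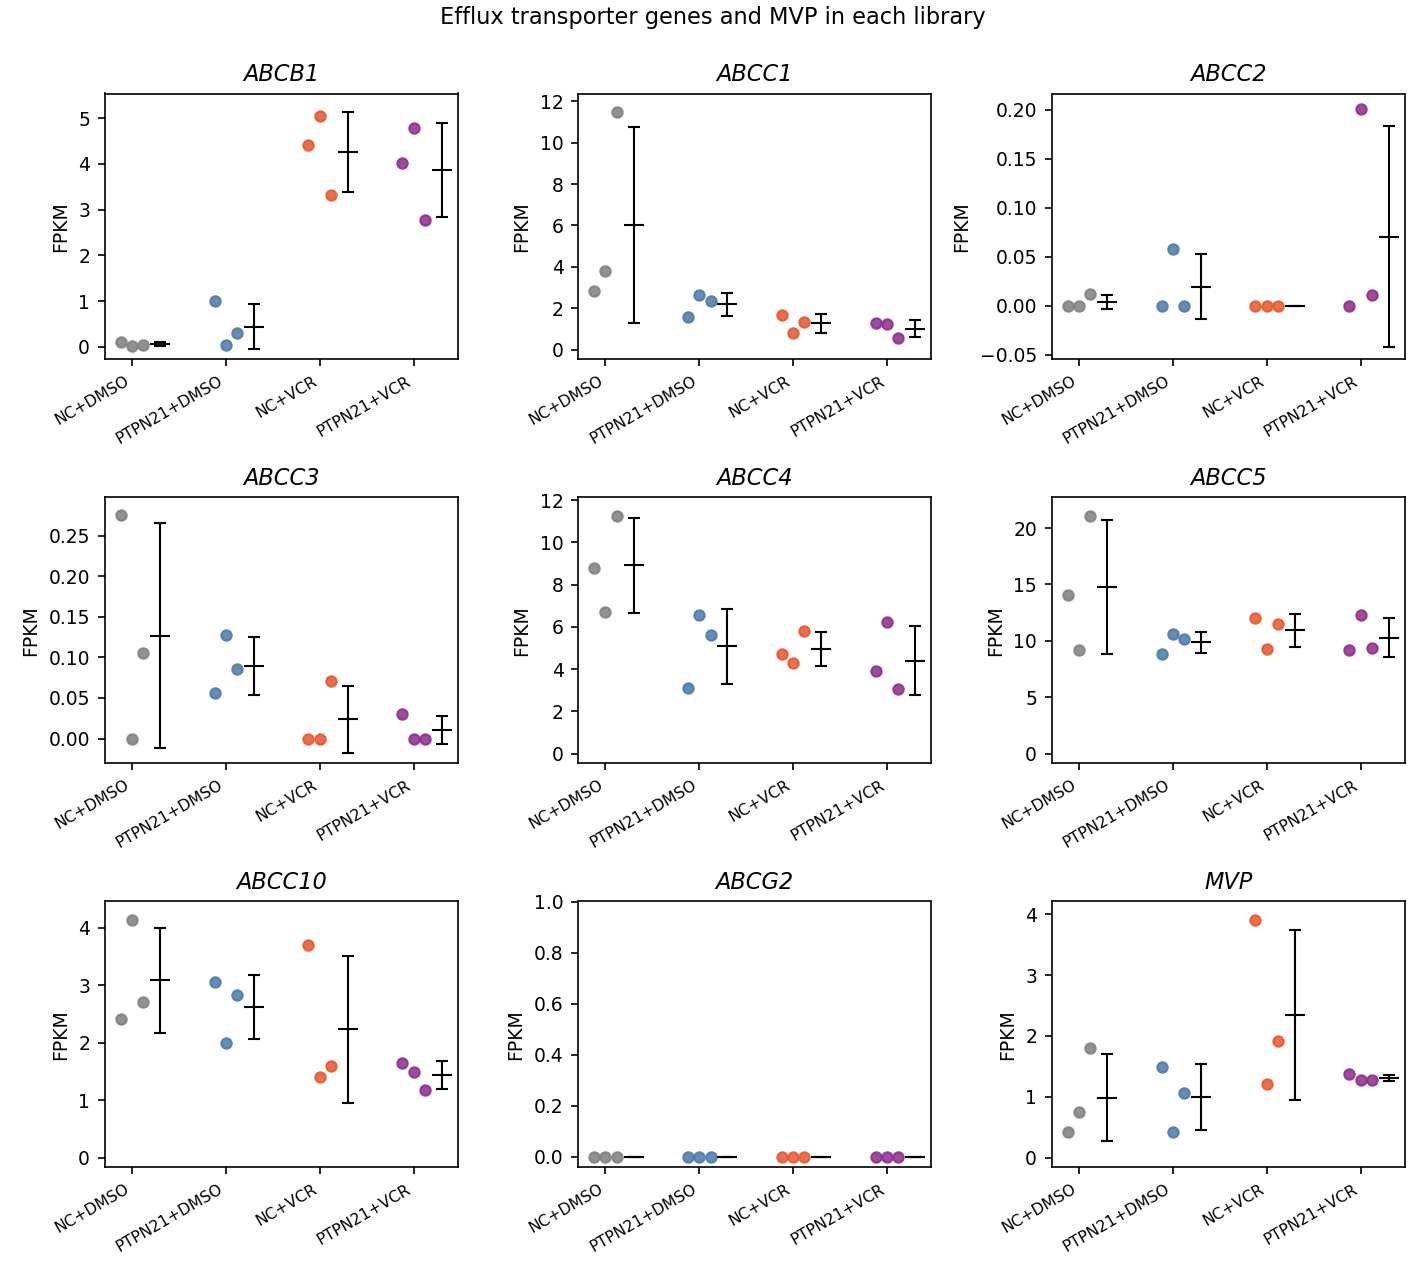
FPKM of the 9 genes (vertical axes, each on its own scale) in the 4 groups (horizontal axes). Points are single libraries, in the order of replicates 1 to 3, and bars give the mean and SD of 3 libraries. All 6 VCR libraries lie above all 6 DMSO libraries for ABCB1, and ABCG2 is at 0 throughout.

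ABCC5, a pump for cyclic nucleotides and nucleotide analogs, had the highest mean FPKM of the 9 in every group. It ranged from 8.85 to 21.0 FPKM over the 12 libraries. It made up 37.4% to 51.5% of the summed FPKM of the 9 genes. ABCC4, which also exports cyclic nucleotides as well as prostaglandins, came next in every group. The ranges of ABCC5 and ABCC4 overlapped in NC+DMSO and lay apart in the other groups.

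The order below ABCC4 differed between DMSO and VCR. In NC+DMSO it was ABCC1 and ABCC10, whose ranges overlapped, then MVP, and then ABCC3 and ABCB1, whose ranges overlapped. In PTPN21+DMSO, ABCC10 and ABCC1 overlapped and lay above MVP, ABCB1 and ABCC3, which overlapped in turn from one to the next. In NC+VCR, ABCB1 was in the third place, with a range that overlapped those of ABCC4 above it and MVP below it, followed by ABCC10 and ABCC1. ABCB1 was in the third place in PTPN21+VCR as well, overlapping ABCC4 and apart from ABCC10, which overlapped MVP, and ABCC1 lay apart below MVP. The share of ABCB1 in the summed FPKM of the 9 genes was 13.0% to 22.9% over the VCR libraries, against 0.0981% to 5.23% over the DMSO libraries.

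Under VCR, ABCB1 rose in both NC and PTPN21 cells. Its level in NC+DMSO was 0.101, 0.0266 and 0.0475 FPKM in replicates 1 to 3. In PTPN21+DMSO it was 1.00, 0.0345 and 0.294 FPKM. In NC+VCR it was 4.41, 5.04 and 3.32 FPKM, and in PTPN21+VCR 4.03, 4.79 and 2.77 FPKM. All VCR libraries were above all DMSO libraries, and PTPN21+DMSO replicate 1 was the highest of the DMSO libraries. The NC+DMSO values stand for an estimated 4.48 to 19 fragments per library if 1 step is 1 fragment, and 2.24 to 9.5 if 2 steps are, so the counting error of this group is large.

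Differences were tested with limma on log2(FPKM + 1) over the 11591 genes with a mean of at least 1 FPKM, with Benjamini-Hochberg adjustment. The added 1 shrinks the changes of genes at low levels. ABCB1 was higher by 2.30 on this scale in NC+VCR than in NC+DMSO (SE 0.270, adjusted p = 8.93e-05), and the ratio of mean FPKM was 73.1. In PTPN21 cells it was higher by 1.79 (SE 0.270, adjusted p = 0.000547), with a ratio of 8.72. The ratios rest on low DMSO levels: without NC+DMSO replicate 1 the first was 114.9, and without PTPN21+DMSO replicate 1 the second was 23.5. By size of the log2 fold change ABCB1 ranked 53rd from the highest of 11591 genes in NC cells and 108th in PTPN21 cells. It entered this ranking only because its VCR libraries lifted its mean over 1 FPKM, so the filter itself favours a high rank. With a pseudocount of 0.1 the log2 fold changes were 4.79 and 3.32. ABCB1 passed the threshold of 0.05 in both comparisons under all 8 other settings and in all 12 fits that left out 1 library. An exact permutation test of 3 against 3 libraries cannot go below 0.1, and gave 0.1 in both cases (two-sided). In RNA of whole cultures, a change in the share of cells with a transcript and a change in the amount per cell cannot be told apart.

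Markers of other cells moved with VCR as well. The summed FPKM of the 6 epithelial and kidney markers was 605 to 801 in NC+DMSO and 758 to 853 in PTPN21+DMSO, against 1678 to 2218 with VCR in PTPN21 cells and 1695 to 1797 with VCR in NC cells, with PAX2 listed at 0 in all 12 libraries. KRT8, KRT18 and KRT19 rose in both NC and PTPN21 cells, EPCAM passed in neither, and CDH1, which was under the minimum, had means of 0.934 FPKM in NC+DMSO and 0 in NC+VCR, and 0.201 and 0.0424 FPKM in PTPN21 cells. The summed FPKM of the 6 myeloid markers was 424 to 478 in NC+DMSO and 188 to 256 in NC+VCR, and 298 to 360 and 128 to 185 in PTPN21 cells. Most of it was CD68, which fell in both (-0.98 and -1.14, adjusted p = 0.000810 and 0.000338). The 12 T cell markers summed to 64.5 to 97.7 FPKM in NC+DMSO and 108 to 136 in NC+VCR, and 120 to 146 and 108 to 112 in PTPN21 cells, with CD3D higher in NC+VCR (0.64, adjusted p = 0.00655) and TRBC1 lower in PTPN21+VCR (-1.44, adjusted p = 0.0398). The 6 B cell markers summed to at most 1.84 FPKM in any library. The summed FPKM of the 13 genes of red blood cell formation was 1538 to 2346 in NC+DMSO and 991 to 1050 in NC+VCR, and 3347 to 4637 in PTPN21+DMSO and 1237 to 1416 in PTPN21+VCR. The part of these markers in the ABCB1 result was not tested.

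ABCC1 encodes MRP1, which exports vincristine together with glutathione. Its level was 2.81, 3.82 and 11.5 FPKM in NC+DMSO and 1.68, 0.784 and 1.34 FPKM in NC+VCR, with no overlap. It fell by 1.45 on the log2 scale (SE 0.383, adjusted p = 0.0120), and the ratio of mean FPKM was 0.211, or 0.383 without NC+DMSO replicate 3. The median of all genes in this comparison was -0.36, and ABCC1 lay 1.09 below it. Without NC+DMSO replicate 3, the highest library, the log2 fold change was -0.94 (adjusted p = 0.0292). With only the 2 groups in the fit the call was lost (adjusted p = 0.0518).

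In PTPN21 cells ABCC1 had 1.56, 2.64 and 2.37 FPKM under DMSO and 1.26, 1.21 and 0.539 FPKM under VCR. These groups did not overlap either, yet the log2 fold change of -0.68 did not pass (95% CI -1.51 to 0.16, adjusted p = 0.211). The difference between the ABCC1 responses of PTPN21 and NC cells was 0.77 (95% CI -0.41 to 1.95, adjusted p = 0.530), so a difference in response was not shown.

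Thus 2 of the 6 genes tested passed in NC+VCR against NC+DMSO, 1 higher and 1 lower, where 36.2% of all genes tested passed (7.91% higher and 28.3% lower). In PTPN21+VCR against PTPN21+DMSO 1 of 6 passed, against 28.5% of all genes (9.22% higher and 19.3% lower). The median log2 fold change of the 6 was -0.36 in the first comparison and -0.06 in the second, beside -0.36 and -0.17 for all genes. The groups did not overlap for 3 of the 6 genes in the first comparison, against 44.1% of all genes, and for 3 of the 6 in the second, against 50.4%. With median ratio scaling the median of all genes became -0.04 in the first, and the higher genes went from 21.9% to 55.8% of those that passed.

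**Figure D2:**
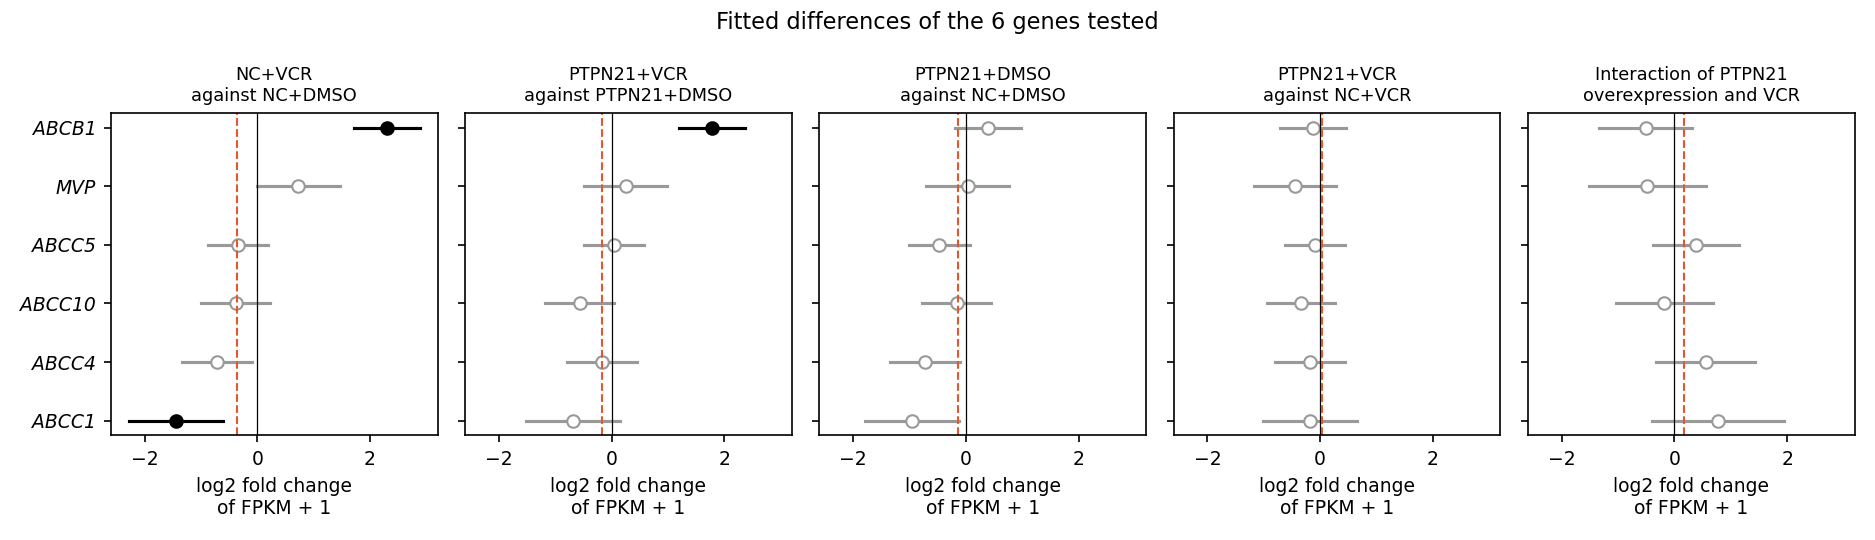
Log2 fold change of FPKM + 1 (horizontal axes) of the 6 genes tested (vertical axis) in the 5 comparisons. Lines are 95% confidence intervals, filled black points passed an adjusted p of 0.05, and the dashed line is the median of all 11591 genes. Black points are seen for ABCB1 in both VCR comparisons (2.30 and 1.79) and for ABCC1 in NC cells (-1.45).

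ABCC4 did not pass in either VCR comparison. It had 8.78, 6.71 and 11.2 FPKM in NC+DMSO and 4.73, 4.29 and 5.83 FPKM in NC+VCR, with no overlap, and the log2 fold change was -0.72 (95% CI -1.34 to -0.10, adjusted p = 0.0677). It passed without NC+DMSO replicate 2 (adjusted p = 0.0495) and without PTPN21+DMSO replicate 1 (adjusted p = 0.0477). In PTPN21 cells, 3.10, 6.55 and 5.59 FPKM under DMSO overlapped with 3.90, 6.23 and 3.07 FPKM under VCR (log2 fold change -0.17, 95% CI -0.79 to 0.45).

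ABCC5 had 14.1, 9.20 and 21.0 FPKM in NC+DMSO and 12.1, 9.28 and 11.5 FPKM in NC+VCR. In PTPN21 cells it had 8.85, 10.6 and 10.1 FPKM under DMSO and 9.16, 12.3 and 9.38 FPKM under VCR. The groups overlapped in both cases, with log2 fold changes of -0.34 (95% CI -0.87 to 0.20) and 0.04 (95% CI -0.49 to 0.58). The first passed without NC+DMSO replicate 2 (-0.62, adjusted p = 0.0473).

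ABCC10 encodes MRP7, for which vinca alkaloids and taxanes are known substrates. It had 2.42, 4.13 and 2.71 FPKM in NC+DMSO and 3.71, 1.41 and 1.59 FPKM in NC+VCR, which overlapped through the first replicate of NC+VCR. In PTPN21 cells 3.05, 1.99 and 2.83 FPKM under DMSO all lay above 1.64, 1.49 and 1.17 FPKM under VCR. Neither log2 fold change passed (-0.38, adjusted p = 0.298, and -0.57, adjusted p = 0.152). ABCC10 shares 79 exonic bases with DLK2 on the other strand, which had a mean of 0.293 FPKM.

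MVP had 0.414, 0.747 and 1.80 FPKM in NC+DMSO and 3.90, 1.21 and 1.92 FPKM in NC+VCR. The groups overlapped, and the log2 fold change was 0.73 (95% CI -0.00 to 1.46, adjusted p = 0.108). It passed with median ratio scaling (adjusted p = 0.0487), with quantile normalization (adjusted p = 0.0239) and without NC+DMSO replicate 3 (adjusted p = 0.0478). The mean of MVP was just under 1 FPKM in both DMSO groups. Like ABCB1, MVP therefore passed the minimum only through the VCR groups, so the filter itself favours a rise. In PTPN21 cells 1.49, 0.425 and 1.07 FPKM under DMSO overlapped with 1.37, 1.28 and 1.28 FPKM under VCR (0.25, adjusted p = 0.618). The 3 PTPN21+VCR libraries spread by 0.0518 FPKM (SD) and the 3 NC+VCR libraries by 1.40 FPKM. MVP shares 154 exonic bases with AC120114.4 on the same strand, which had a mean of 0.0533 FPKM. The antisense gene AC009133.1 overlaps MVP on the other strand, shares no exonic base with it and had a mean of 2.61 FPKM.

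PTPN21 overexpression was compared with NC within each treatment. For sequencing, the paper describes only control and PTPN21 cells under VCR. By limma, 0 of the 6 genes passed in PTPN21+DMSO against NC+DMSO, where 6.34% of all genes did (735, and 54 to 1347 when 1 library was left out). An unadjusted p under 0.05 was found for 2 of the 6, and for 2968 of all 11591 genes. In PTPN21+VCR against NC+VCR 0 of 6 passed, where 1.82% of all genes did. There 0 of the 6 had an unadjusted p under 0.05, against 1980 of the 11591 genes. The groups overlapped for all 6, while they did not for 22.5% of all genes. In the interaction of construct and VCR 0 of 6 passed, where 0.129% of all genes did. An unadjusted p under 0.05 was found there for 0 of the 6, against 1624 of the 11591 genes.

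The 2 genes with a low unadjusted p in the DMSO groups were ABCC1 and ABCC4. ABCC1 was at 2.19 ± 0.561 FPKM (SD, n = 3) in PTPN21+DMSO and 6.03 ± 4.73 in NC+DMSO, with no overlap (log2 fold change -0.96, 95% CI -1.79 to -0.12, adjusted p = 0.145). ABCC4 was at 5.08 ± 1.78 and 8.91 ± 2.26 FPKM, also with no overlap (-0.73, 95% CI -1.35 to -0.10, adjusted p = 0.138). Groups without overlap were found for 2 of the 6 genes and for 33.4% of all genes in this comparison.

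For ABCB1 the difference between PTPN21 and NC cells was 0.39 under DMSO (95% CI -0.19 to 0.98, adjusted p = 0.388) and -0.12 under VCR (95% CI -0.71 to 0.47, adjusted p = 0.870). Its VCR response differed between PTPN21 and NC cells by -0.51 (95% CI -1.34 to 0.32, adjusted p = 0.553). These intervals hold both no difference and, at their ends, differences of more than 1 in the interaction. They are on the scale of FPKM + 1, which shrinks changes at low levels. Under DMSO the ratio of mean FPKM was 7.61, with PTPN21+DMSO replicate 1 at 1.00 FPKM. In the other settings the DMSO difference was 0.31 to 1.32 and the interaction -1.47 to -0.45, and neither passed in any.

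Under VCR the other 5 genes had log2 fold changes from -0.45 for MVP to -0.09 for ABCC5 between PTPN21 and NC cells. ABCC5 passed in the DMSO groups without NC+DMSO replicate 2 (-0.75, adjusted p = 0.0470), against -0.47 (adjusted p = 0.254) with all libraries. The summed FPKM of the 9 genes was 34.0 ± 12.7 (SD, n = 3) in NC+DMSO and 26.0 ± 4.26 in NC+VCR, beside 21.3 ± 1.90 in PTPN21+DMSO and 22.4 ± 4.70 in PTPN21+VCR. The wide NC+DMSO spread came with replicate 3, at 48.4 FPKM.

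The ABCB1 response was set beside that of the 47 ABC genes in the lists used, of which 22 were tested and 11 were listed at 0 in all 12 libraries. ABCB1 had the highest log2 fold change of the 22 in both VCR comparisons, but it was tested only because its VCR libraries lifted its mean. In PTPN21+DMSO against NC+DMSO its log2 fold change was also the highest of the 22 (0.39, limma adjusted p = 0.388). Under VCR 1 of the 22 rose in NC cells (ABCB1) and 9 fell, where 7.91% of all genes rose and 28.3% fell. In PTPN21 cells 3 rose and 4 fell, where 9.22% of all genes rose and 19.3% fell.

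Of 6 other B and C family genes tested, 0 rose and 3 fell in NC cells, where 7.91% of all genes rose and 28.3% fell. By limma 0 passed in PTPN21 cells, where 28.5% of all genes did. There 2 of the 6 had an unadjusted p under 0.05, against 4628 of all 11591 genes. Those that fell in NC cells were TAP2, a subunit of the peptide transporter for antigen presentation (-2.12, adjusted p = 0.000347), and the mitochondrial ABCB8 (-1.33, adjusted p = 0.00944) and ABCB10 (-0.92, adjusted p = 0.0181). The ABCB10 call held in 5 of 8 other settings and 10 of 12 fits without 1 library, and was lost with median ratio scaling (adjusted p = 0.108). The ABCB8 call held in 7 of 8 other settings. The nearest relative of ABCB1, the phospholipid transporter ABCB4, did not pass in either VCR comparison (0.12 and 0.57, adjusted p = 0.709 and 0.0841).

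Of 11 genes of the A, D, E, F and G families tested, 0 rose and 5 fell in NC cells, and 2 rose and 4 fell in PTPN21 cells. Of all genes, 7.91% rose and 28.3% fell in NC cells, and 9.22% rose and 19.3% fell in PTPN21 cells. ABCA7, a lipid transporter, fell in both (-1.57 and -1.54), as did ABCF1 (-0.79 and -1.27) and ABCF2 (-0.48 and -0.98), which carry no membrane domain and act on ribosomes. With median ratio scaling neither ABCF1 nor ABCF2 passed in NC cells, and the ABCF2 call there held in 5 of 8 other settings. ABCA8 (0.99, adjusted p = 0.0296) and the ribosome recycling factor ABCE1 (0.47, adjusted p = 0.0428) rose in PTPN21 cells. The ABCA8 call held in 7 of 8 other settings and the ABCE1 call in 4, and each held in 7 of 12 fits without 1 library. With PTPN21 overexpression ABCE1 was lower under DMSO (-0.60, adjusted p = 0.0464) and ABCF2 lower under VCR (-0.66, adjusted p = 0.0482). Each passed in 2 of 8 other settings, and they passed in 2 and 1 of 12 fits without 1 library.

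**Figure D3:**
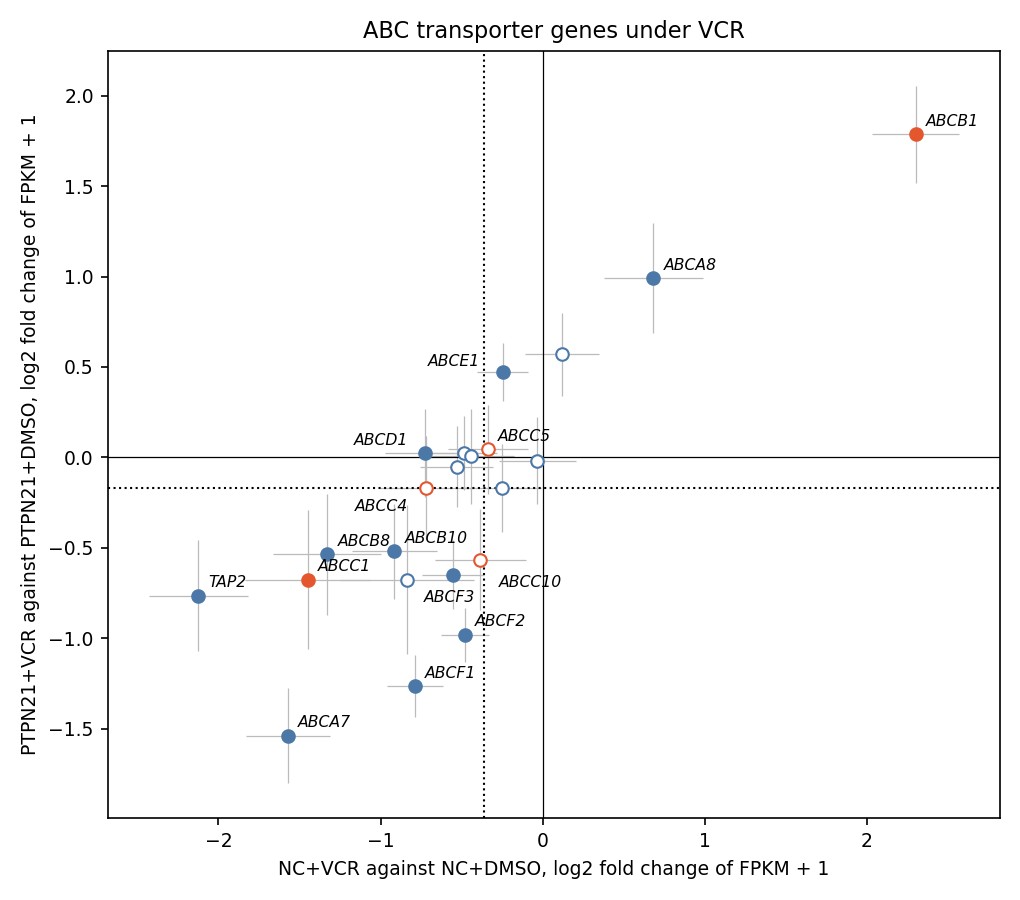
Log2 fold change of FPKM + 1 under VCR in NC cells (horizontal axis) and in PTPN21 cells (vertical axis) for the 22 ABC genes tested. Orange points are multidrug transporters, blue points other ABC genes, filled points passed in at least 1 of the 2 comparisons, grey lines are standard errors, and dotted lines are the medians of all genes. ABCB1 lies alone at the upper right, at 2.30 and 1.79.

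The genes beside ABCB1 on chromosome 7 were examined after its value was seen. Of 11 protein-coding genes reaching within 500 kb, ABCB1 included, 9 were tested and 1 passed in each VCR comparison, which was ABCB1. Among all genes tested, 36.2% passed in NC cells and 28.5% in PTPN21 cells. SRI, encoding the calcium-binding protein sorcin, had 0.43 and 0.45 (adjusted p = 0.0820 and 0.0824), and TMEM243 had 0.62 and 0.95 (adjusted p = 0.172 and 0.0548). Besides ABCB1, an unadjusted limma p under 0.05 was found in NC cells for SRI (0.0347), which was higher. In PTPN21 cells it was found for TMEM243 (0.0161), SRI (0.0283), ABCB4 (0.0291) and DMTF1 (0.0454), all higher under VCR. Of all 11591 genes, 5379 had such a p in NC cells and 4628 in PTPN21 cells. RUNDC3B, which lies on the other strand across ABCB1, shares no exonic base with it and had a mean of 0.00237 FPKM.

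**Figure D4:**
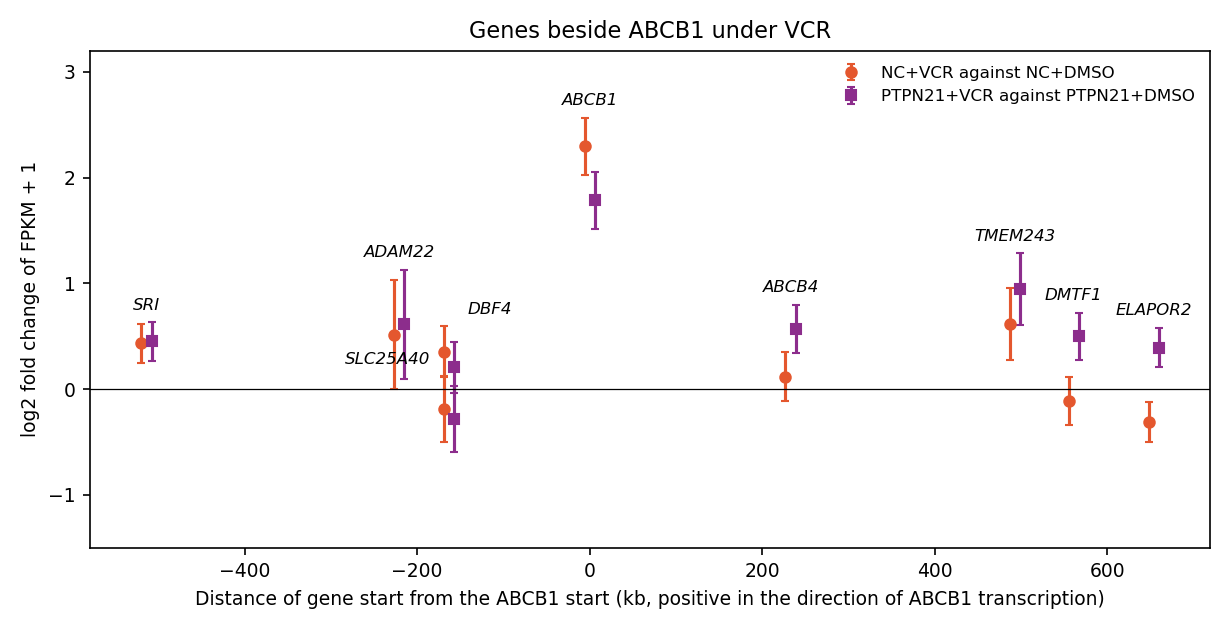
Log2 fold change of FPKM + 1 under VCR (vertical axis) of the 9 genes tested within 500 kb of ABCB1, by the distance of their starts from the ABCB1 start (horizontal axis, in kb, positive in the direction of ABCB1 transcription). Circles are NC cells, squares PTPN21 cells, bars are standard errors, and points of a gene are set 12 kb apart to be seen. ABCB1 stands at 2.30 and 1.79, and the other 8 genes lie between -0.31 and 0.95.

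Partners of MVP in the vault particle were tested under VCR as well. Of 3 tested, 1 rose in NC cells and 2 in PTPN21 cells, where 7.91% and 9.22% of all genes rose. The vault RNA VTRNA1-2 rose from 0.213 ± 0.368 FPKM (SD, n = 3) in NC+DMSO to 11.1 ± 3.24 in NC+VCR (log2 fold change 3.32, adjusted p = 3.32e-05). In PTPN21 cells it rose from 0.694 ± 0.602 to 16.2 ± 3.93 FPKM (3.39, adjusted p = 2.55e-05). VTRNA1-2 was listed at 0 in 3 libraries and, like ABCB1, passed the minimum only through the VCR groups. PARP4, the vault poly(ADP-ribose) polymerase, rose in PTPN21 cells (0.81, adjusted p = 0.00243).

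Among genes of vincristine uptake, metabolism and other export 1 of 6 was tested. CYP3A5, a cytochrome P450 that oxidizes vincristine, went from 3.99 ± 0.534 to 18.3 ± 1.05 FPKM in NC cells (1.95, adjusted p = 3.32e-05) and from 3.04 ± 0.916 to 16.9 ± 1.80 FPKM in PTPN21 cells (2.17, adjusted p = 1.38e-05). Both comparisons held under all 8 other settings and in all 12 fits without 1 library.

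Of 16 genes of glutathione synthesis and transfer tested, 1 rose and 6 fell in NC cells, and 1 rose and 3 fell in PTPN21 cells. The shares of all genes that rose and fell were 7.91% and 28.3% in NC cells, and 9.22% and 19.3% in PTPN21 cells. MGST3 rose in both (0.67 and 0.78), the first in 4 of 8 other settings and 2 of 12 fits without 1 library, the second in 7 and 6. Glutathione synthetase GSS fell in both (-0.94 and -0.85), as did glutathione reductase GSR (-0.94 and -0.53), the second in 3 of 8 other settings. GGT1, which breaks down glutathione outside the cell, fell in NC cells (-2.08, adjusted p = 0.000635). With PTPN21 overexpression the transferase GSTO1 was higher under DMSO (0.68, adjusted p = 0.0481) and under VCR (0.80, adjusted p = 0.0496). These GSTO1 calls held in 1 and 3 of 8 other settings and in 1 and 2 of 12 fits without 1 library. GSTP1 was higher with PTPN21 under DMSO (0.73, adjusted p = 0.0290), in 4 of 8 other settings and 8 of 12 fits without 1 library. It fell under VCR in PTPN21 cells (-1.0, adjusted p = 0.000947).

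Of 12 transcription factors of efflux genes tested, 1 rose and 6 fell in NC cells, and 2 rose and 3 fell in PTPN21 cells. The shares of all genes that rose and fell were 7.91% and 28.3% in NC cells, and 9.22% and 19.3% in PTPN21 cells. NFE2L2, the regulator of antioxidant and conjugation genes also called NRF2, rose in both (1.01 and 1.51, adjusted p = 0.0257 and 0.00389), the first in 6 of 8 other settings and 10 of 12 fits without 1 library. HIF1A, the hypoxia factor, rose in PTPN21 cells (0.86, adjusted p = 0.00715). YBX1, a Y-box protein that binds inverted CCAAT sequences and has been linked to ABCB1, fell in both (-0.79 and -1.10), as did NFYC, a subunit of the CCAAT factor NF-Y (-0.71 and -0.73). The NFYC call in NC cells held in 6 of 8 other settings and was lost with median ratio scaling. FOXO3 fell in NC cells (-1.15, adjusted p = 0.00521) and was lower with PTPN21 under DMSO (-1.19, adjusted p = 0.0267), as was the NF-Y subunit NFYA (-0.89, adjusted p = 0.0366). The calls with PTPN21 under DMSO held in 5 and 3 of 8 other settings and in 8 and 6 of 12 fits without 1 library.

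Of 5 membrane anchors and kinases of efflux pumps tested, 0 rose and 1 fell in NC cells, and 2 rose and 2 fell in PTPN21 cells. The shares of all genes that rose and fell were 7.91% and 28.3% in NC cells, and 9.22% and 19.3% in PTPN21 cells. PIM1, a kinase known to act on P-glycoprotein and ABCG2, fell in both (-1.12 and -1.12, adjusted p = 0.000350 and 0.000392). The membrane-to-actin linkers RDX (0.98, adjusted p = 0.0188) and EZR (0.34, adjusted p = 0.0224) rose in PTPN21 cells, RDX in 7 of 8 other settings and 9 of 12 fits without 1 library and EZR in 6 and 8. With PTPN21 overexpression under DMSO, MSN (-1.04, adjusted p = 0.0127) and EZR (-0.40, adjusted p = 0.0371) were lower. These 2 calls held in 6 and 4 of 8 other settings and in 11 and 4 of 12 fits without 1 library. SLC9A3R1, a scaffold for transporters, fell under VCR in PTPN21 cells (-1.31, adjusted p = 0.00119). Under VCR it was lower in PTPN21 than in NC cells (-1.10, adjusted p = 0.0328). The second call held in 5 of 8 other settings and 5 of 12 fits without 1 library.

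**Figure D5:**
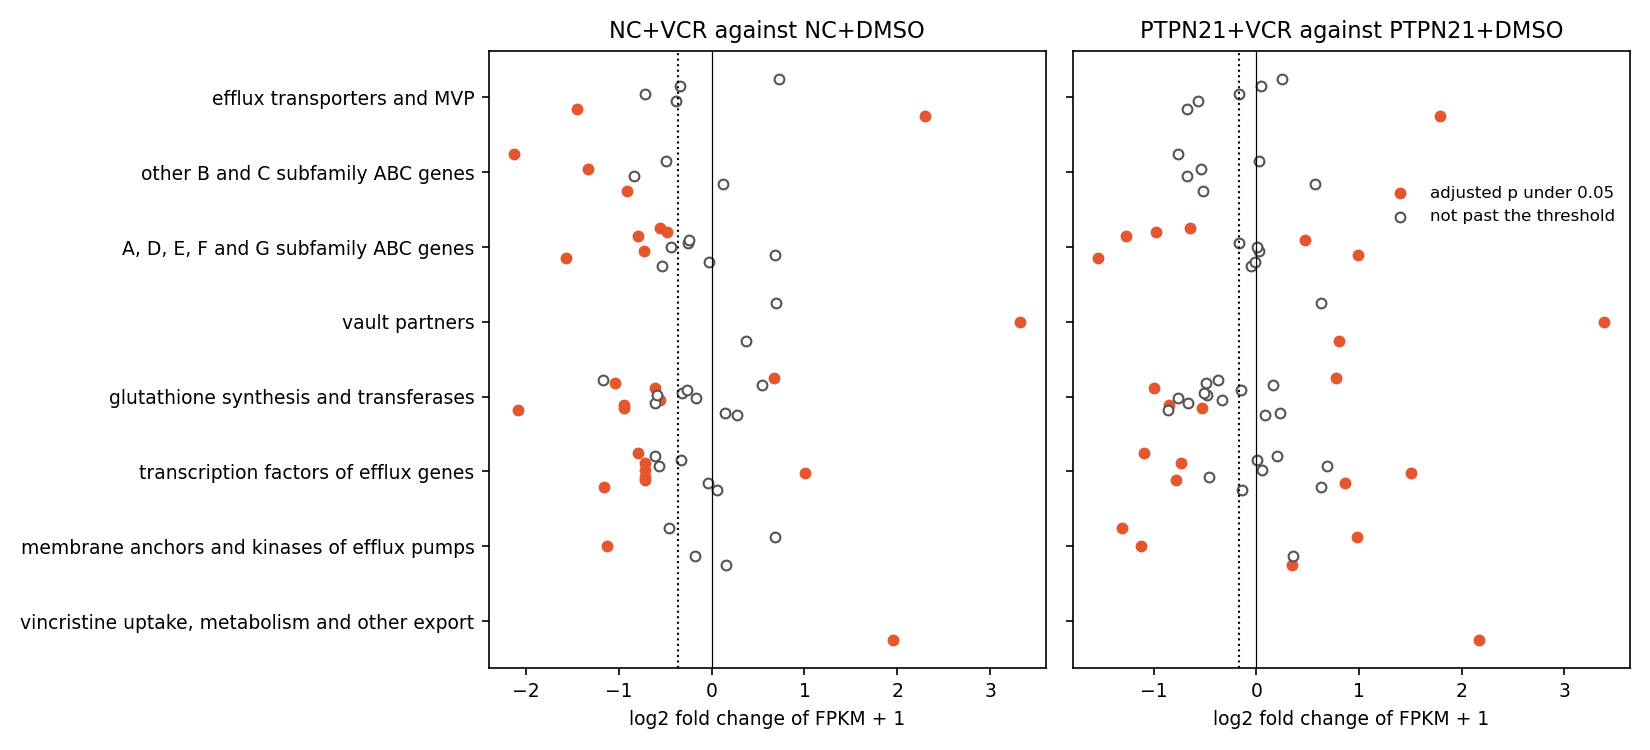
Log2 fold change of FPKM + 1 (horizontal axes) of each gene tested in 8 lists (vertical axis) under VCR, in NC cells (left) and PTPN21 cells (right). Filled points passed an adjusted p of 0.05, and the dotted line is the median of all genes, -0.36 and -0.17. The highest point in both panels is VTRNA1-2, at 3.32 and 3.39.

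The gene closest in pattern to each member was found as the smallest mean absolute difference of centred log2(FPKM + 1) over the 12 libraries. For ABCB1 it was the small nucleolar RNA SNORD3A, with 0.186 against a median of 1.17 over 11590 genes. SNORD3A had mean levels of 5.27 and 5.79 FPKM under DMSO and 23.4 and 23.7 FPKM under VCR, in NC and PTPN21 cells in turn. For ABCC1 it was POM121 (0.188) and for ABCC4 POLR3B (0.105). ABCC5 was closest to EDRF1 (0.0927), ABCC10 to HS6ST1 (0.118) and MVP to MAP7D1 (0.202). These are descriptions of likeness over libraries that share their groups.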

How the data were processed

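The authors deposited FPKM values in 1 table, which an external company had produced, covering 60671 genes with human Ensembl identifiers. The submitters' processing notes name fastp, Bowtie2 and the mouse build mm10, which human identifiers do not match. The counting program and the annotation are not given in the sources used here. Groups came from the labels. The 9 genes, all gene lists and the tests were chosen with earlier results of these data known.

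The deposited FPKM of the 11591 genes with a mean of at least 1 were taken to log2(FPKM + 1). The 4 group means were fitted together in limma 3.58.1 (R 4.3.3), with the intensity trend and no block, and 5 comparisons were drawn from the fit. Benjamini-Hochberg adjustment covered every gene tested, and the threshold was 0.05. The interaction is the VCR difference in PTPN21 cells minus that in NC cells. Depth was estimated from the steps of FPKM times length in single-exon genes. It limits genes with low FPKM most.

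Named were all 9 genes, PTPN21, at most 3 genes per other list, direction and comparison with the lowest p among those that passed, and the closest gene in pattern. SRI, TMEM243, ABCB4, DMTF1, DLK2, AC120114.4, AC009133.1, RUNDC3B and the genes of red blood cell formation were named after their values were seen. Of the lists, 2 genes are not reported here and do not enter the counts of their lists. Gene positions came from GENCODE release 29 and promoters from RefSeq.

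Alternatives tried were no filter, a pseudocount of 0.1, TPM scaling, median ratio scaling, quantile normalization, no trend, only the groups compared, a replicate block and leaving out each library. Same-numbered libraries did not deviate together: over 18 pairs the correlation of deviations was -0.145 to 0.0583. Python 3.11.15, pandas 2.3.3, numpy 2.4.6 and matplotlib 3.10.9 were used.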

Additional observations from a re-analysis of the deposited data

How the results depend on the processing

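With the replicate block, taking same-numbered libraries as pairs, the 2, 1, 0, 0 and 0 of 6 genes past the threshold in the 5 comparisons did not change in number, while the genes past it in PTPN21+DMSO against NC+DMSO went from 735 to 242, in PTPN21+VCR against NC+VCR from 211 to 74 and in the interaction from 15 to 8. With only the groups compared, 1 of 6 genes passed in NC+VCR against NC+DMSO, ABCC1 being lost, and of all genes 2674 in place of 4192 passed there, 4157 in place of 3308 in PTPN21+VCR against PTPN21+DMSO, 40 in PTPN21+DMSO against NC+DMSO and 117 in PTPN21+VCR against NC+VCR. The last 2 counts were 177 and 118 with no filter and 321 and 72 with no trend, and the interaction had 8 genes with no filter and 9 with no trend. Leaving out 1 library gave 2 to 4 genes in NC+VCR against NC+DMSO and 0 to 1 in PTPN21+DMSO against NC+DMSO, with both of the higher counts reached without NC+DMSO replicate 2. Over all genes, the count in PTPN21+DMSO against NC+DMSO was lowest when PTPN21+DMSO replicate 1 was left out (54) and highest when NC+DMSO replicate 2 was (1347). In PTPN21+VCR against NC+VCR the lowest was 43, lacking PTPN21+VCR replicate 2, and the highest 357, lacking NC+DMSO replicate 3. The interaction ranged from 7, lacking NC+DMSO replicate 1, up to 30, lacking replicate 2 of that group. At least 1 FPKM in all 12 libraries was reached by 3 of the 9 genes, against 6 by the mean.

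Some values that had not passed changed sign, and none of them passed. In PTPN21+VCR against PTPN21+DMSO, ABCC4 was 0.031 with quantile normalization and -0.43 to 0.015 without 1 library, and ABCC5 was -0.078 to 0.11 without 1 library. In NC+VCR against NC+DMSO, ABCC5 was 0.024 with median ratio scaling and ABCC10 0.035 with quantile normalization. In PTPN21+DMSO against NC+DMSO, ABCC10 was 0.022 with quantile normalization and -0.28 to 0.013 without 1 library, and MVP was -0.054 with TPM scaling and -0.19 to 0.31 without 1 library. In PTPN21+VCR against NC+VCR without 1 library, ABCB1 was -0.26 to 0.052 and ABCC4 -0.40 to 0.0091. The interaction of ABCC10 was -0.36 to 0.12 without 1 library. The cause was not tested.

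Values of a few fragments, as for ABCB1 under DMSO, are the least precise, and a 0 in a table of FPKM does not show that a gene was silent.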
